A study of Mus musculus with 14 samples.

Results

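The pericentral hepatocyte genes examined here are Glul, Cyp2e1, Cyp1a2, Oat, Slc1a2, Lgr5, Axin2, Rhbg and Gulo, 9 genes chosen by name. Of these, 7 were named by the annotation of the array, each by 1 probe set, out of 19505 genes named in all. No probe set carried the name Glul or Rhbg, so both are not analysed here. Hepatic gene expression was measured on 14 Clariom S mouse arrays, 1 per mouse, in livers of 10-week-old male C57BL/6N mice. Mice of the compression group (n = 7) wore adjustable clothes that were tightened around the trunk, and mice of the no-compression group (n = 7) wore the same clothes without the load. Livers were frozen 8 hours after the load began, in the light period in which mice rest. The clothes were put on under isoflurane and isoflurane was given again before the liver was taken, which both groups share. Mice were also anesthetized when the compression was changed. The paper does not state whether the no-compression group had this anesthesia too, and its part in any difference was not tested. The comparison asks what the load on the trunk added, together with any change in feeding that came with it. The study reports that the compression group ate less and lost more weight than the no-compression group during the short-term load. The part of lower food intake in any difference between the groups was not tested.

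The liver lobule is zoned. Blood enters at the portal vein and leaves at the central vein, and hepatocytes along this path carry different enzymes. Around the central vein, endothelial cells release Wnt ligands and R-spondin, beta-catenin is active in the neighbouring hepatocytes, and these cells make glutamine from ammonia, oxidize drugs and form bile acids. Periportal hepatocytes make urea and glucose. Whole liver was measured here, so a lower share of pericentral cells and less RNA per cell cannot be told apart.

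Each deposited value is on the log2 scale and condenses the probes of a probe set by factor analysis, which leaves a near-constant value wherever the probes share no variation. Of 22206 probe sets, 20679 (93.1%) had a standard deviation (SD) under 2e-05 over the 14 arrays, and 1238 (5.58%) had an SD above 0.01. Those above 0.01 are called probe sets with spread. Among the members, Cyp2e1, Cyp1a2, Oat and Gulo had spread, and Slc1a2, Lgr5 and Axin2 did not. No-compression replicates 3, 6 and 7 stood apart from the other 11 arrays. On the leading principal component of these 1238, with 57.1% of the variance, they had values from 9.45 to 16.7. Compression replicates lay between −4.35 and 2.25 and the other no-compression replicates between −6.73 and −3.34. The labels give no reason for this, and results are therefore given also without these 3 arrays, a setting chosen with the data seen. The hepatocyte markers Alb and Apoa1 averaged 13.39 and 13.09 on the log2 scale, near the top of the table, whose highest value was 13.39, so the defining markers of the labelled tissue were present.

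The stretches upstream of the start site of Cyp2e1, Cyp1a2 and Oat are shown because the P450 genes and Oat lay on opposite sides of the group comparison. None of these differences passed a test, so the matches are not to be read as tied to direction. They are the 250 bases before the start, from RefSeq on build GRCm38.p6, written 5′ to 3′ on the strand of the gene. Capitals mark matches to ATCAAAG or TTCAAAG, 2 spellings of the word bound by the TCF and LEF partners of beta-catenin, searched on both strands. Cyp2e1 lies at chr7:140763569-140763818 on the plus strand, Cyp1a2 at chr9:57683656-57683905 on the minus strand and Oat at chr7:132576399-132576648 on the minus strand.
Cyp2e1: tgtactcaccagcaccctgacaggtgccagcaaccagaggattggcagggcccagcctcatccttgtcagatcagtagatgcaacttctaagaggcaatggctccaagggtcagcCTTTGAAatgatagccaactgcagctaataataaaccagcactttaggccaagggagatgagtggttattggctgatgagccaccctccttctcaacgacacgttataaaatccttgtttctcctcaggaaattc
Cyp1a2: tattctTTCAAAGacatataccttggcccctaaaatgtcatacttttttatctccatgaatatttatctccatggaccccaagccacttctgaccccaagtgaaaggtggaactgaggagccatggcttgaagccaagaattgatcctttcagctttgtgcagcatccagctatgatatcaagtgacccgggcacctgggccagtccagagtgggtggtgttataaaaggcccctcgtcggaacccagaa
Oat: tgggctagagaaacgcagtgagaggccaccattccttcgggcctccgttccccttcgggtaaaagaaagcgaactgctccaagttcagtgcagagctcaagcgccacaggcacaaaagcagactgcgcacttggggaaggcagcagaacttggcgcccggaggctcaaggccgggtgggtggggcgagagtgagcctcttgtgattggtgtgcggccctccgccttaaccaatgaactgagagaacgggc
Cyp2e1 and Cyp1a2 held 1 match each, which begins 135 and 244 bases before the start, and Oat held 0. A promoter was listed for 6 of the 9 members, and 3 of the 6 held a match, the third being Slc1a2. Glul and Axin2 held 0, as did Oat. Of all 32851 promoters listed, 7.48% held a match in the same window. Promoters of Lgr5, Rhbg and Gulo were not searched. A match in these letters is a description of the sequence and does not show that a factor binds there.

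In the compression group the means of Cyp2e1, Cyp1a2 and Gulo were, as ratios on the linear scale, 1.06-fold, 1.11-fold and 1.12-fold those of the no-compression group, that of Oat was 0.958-fold, and no difference passed the test. With limma, a linear model fitted across all 22206 probe sets with Benjamini-Hochberg adjustment and a limit of 0.05, 0 of the 7 measured members passed, and the background was 0% of all probe sets. At an unadjusted p under 0.05 the count was also 0 of 7, where 5.19% of all probe sets and 7.43% of those with spread lay under it. By the rank products method, which the study's methods name and which was written out anew here with a limit of 0.01 for the false discovery rate (FDR), 0 members were called in either direction, beside 1.26% of all probe sets called higher and 1.22% called lower. Almost all of these calls were probe sets with spread, of which 22.1% were called higher and 21.4% lower. These calls depend on ranking beside the near-constant probe sets, since rank products run on the 1238 with spread alone called 3 higher and 0 lower, in place of 280 and 271 over the whole table. With the 3 arrays that stand apart left out it called 30 higher and 13 lower over the whole table. In the full run Cyp2e1 lay near that limit (FDR 0.0126 for a higher level) and was called when compression replicate 6 or no-compression replicate 1, 2 or 4 was left out, and Gulo (FDR 0.0173) when no-compression replicate 2 or 4 was. Cyp2e1, Cyp1a2, Gulo and Glul also stand in gene lists that the study drew from these same arrays, so that the side on which they lie is no independent evidence. The study built its functional lists from genes that its own rank products run called at an FDR under 0.01. The run here thus differs from the study's for Cyp2e1, Cyp1a2 (FDR 0.0219 for a higher level) and Gulo, which it left uncalled. The reason for the difference was not tested. A higher mean was found for 3 of the 4 members with spread, beside 48.3% of all probe sets with spread, and a lower mean for 1, beside 51.7%. The median log2 fold change of the 4 was 0.12, beside −0.0029 over the 1238. Without no-compression replicates 3, 6 and 7 it was −0.03, with 2 of the 4 higher.

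Cyp2e1, the cytochrome P450 that oxidizes ethanol, acetone and paracetamol, was at log2 values of 13.04, 13.05, 13.05, 13.02, 13.04, 12.99 and 13.04 in compression replicates 1 to 7. In no-compression replicates 1 to 7 it was at 13.05, 13.04, 12.91, 13.02, 13.01, 12.85 and 12.77. The 3 lowest values of the 14 thus belonged to no-compression replicates 7, 6 and 3, and the others of both groups lay within 12.99 to 13.05. The compression group averaged 13.03 ± 0.02 (SD, n = 7) and the no-compression group 12.95 ± 0.11 (SD, n = 7). The log2 fold change was 0.08 (standard error 0.04, 95% interval −0.01 to 0.17, adjusted p = 0.943 from limma), and a two-sided exact permutation test of the means gave p = 0.0717. With no-compression replicates 3, 6 and 7 left out it was 0.0036, with an interval from −0.02 to 0.03, and it was 0.05 with no-compression replicate 7 alone left out. The SD of the no-compression group was 5.12 times that of the compression group. All of these values lie near the highest value of the table, and whether the probes were near saturation was not tested.

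Cyp1a2, which oxidizes caffeine and aromatic amines and is induced through the aryl hydrocarbon receptor, varied most of the 4. It was at 12.14, 12.08, 12.10, 11.99, 12.09, 12.34 and 11.87 in compression replicates 1 to 7, and at 12.22, 12.33, 11.58, 12.20, 12.15, 11.36 and 11.70 in no-compression replicates 1 to 7. No-compression replicates 6, 3 and 7 were again the 3 lowest of the 14 mice, while the other no-compression replicates held ranks 2 to 5 from the top. The compression group averaged 12.09 ± 0.14 (SD, n = 7) and the no-compression group 11.93 ± 0.38 (SD, n = 7). The log2 fold change was 0.15 (standard error 0.15, 95% interval −0.17 to 0.48, adjusted p = 0.979 from limma), with p = 0.334 in the exact permutation test. The sign turned on removal of no-compression replicates 3, 6 and 7, to −0.14 (interval −0.31 to 0.04), and the value was 0.06 when only no-compression replicate 6 was. Of the other targets of the aryl hydrocarbon receptor in the list used here, 6 of 8 had a named probe set and 0 of the 6 had spread, Cyp1a1 and Cyp1b1 among them.

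Gulo, the oxidase that completes vitamin C synthesis in mice, had the same 3 lowest mice as Cyp1a2. It was at 11.54, 11.45, 11.41, 11.18, 11.44, 11.49 and 11.26 in compression replicates 1 to 7, and at 11.37, 11.50, 11.04, 11.49, 11.45, 10.71 and 11.05 in no-compression replicates 1 to 7. The lowest value was that of no-compression replicate 6, followed by replicates 3 and 7 of the same group and then by compression replicate 4. The compression group averaged 11.40 ± 0.13 (SD, n = 7) and the no-compression group 11.23 ± 0.30 (SD, n = 7). The log2 fold change was 0.16 (standard error 0.12, 95% interval −0.10 to 0.43, adjusted p = 0.967 from limma), with p = 0.219 in the exact permutation test. Leaving out no-compression replicates 3, 6 and 7 gave −0.06 (interval −0.21 to 0.09). It was 0.08 without no-compression replicate 6 alone, in place of 0.16.

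Oat, the mitochondrial aminotransferase that turns ornithine toward glutamate, ran the other way. It was at 11.10, 11.05, 11.18, 11.51, 11.16, 11.23 and 11.07 in compression replicates 1 to 7, and at 11.19, 11.22, 11.39, 11.15, 11.07, 11.28 and 11.43 in no-compression replicates 1 to 7. Compression replicate 4 was the highest of all 14 mice, no-compression replicates 7, 3 and 6 came next, and the groups overlapped over nearly their whole range. The compression group averaged 11.18 ± 0.16 (SD, n = 7) and the no-compression group 11.25 ± 0.13 (SD, n = 7). The log2 fold change was −0.06 (standard error 0.08, 95% interval −0.23 to 0.10, adjusted p = 0.980 from limma), with p = 0.433 in the exact permutation test. It was 0.03 (interval −0.16 to 0.21) with no-compression replicates 3, 6 and 7 left out, and −0.12 without compression replicate 4 alone. Oat was the exception to a larger SD in the no-compression group, which 3 of the 4 members showed, beside 66.4% of all probe sets with spread.

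**Figure D1:**
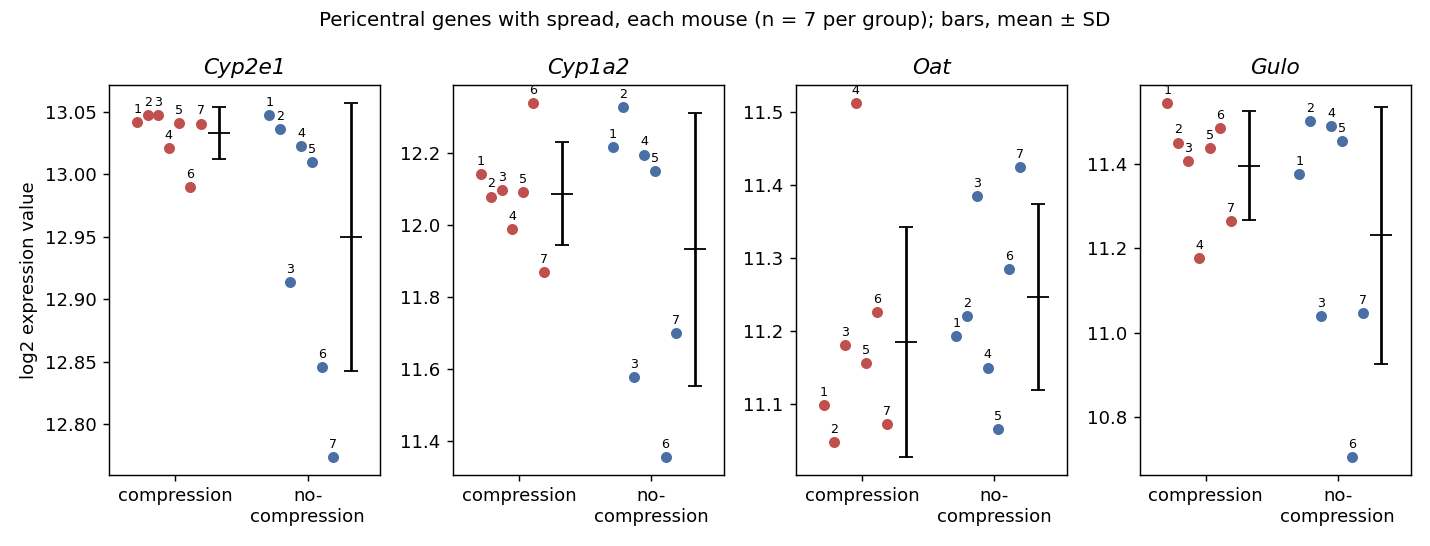
The log2 expression value of Cyp2e1, Cyp1a2, Oat and Gulo is plotted for each mouse, compression (red, left) and no-compression (blue, right), with the replicate number above each point and the mean ± SD beside it (n = 7 per group). No-compression replicates 3, 6 and 7 are the 3 lowest mice for Cyp2e1, Cyp1a2 and Gulo, and compression replicate 4 is the highest for Oat at 11.51.

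**Figure D2:**
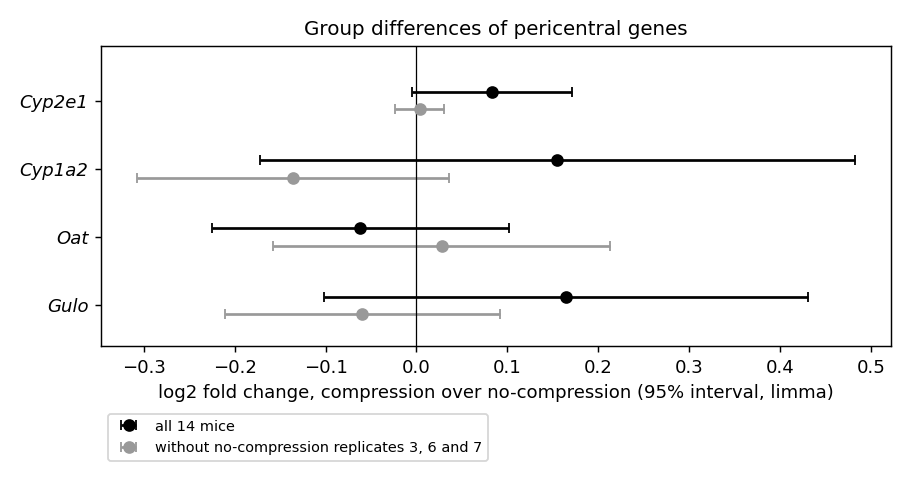
The log2 fold change of each member with spread, compression over no-compression, is plotted with its 95% interval from limma, for all 14 mice (black) and without no-compression replicates 3, 6 and 7 (grey). Every interval crosses 0, and the sign of Cyp1a2, Oat and Gulo differs between the settings.

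Slc1a2, a glutamate transporter, Lgr5, a receptor of R-spondin, and Axin2, a scaffold of the complex that destroys beta-catenin and itself a target of the pathway, gave no information on a change. Over the 14 arrays they stayed at 10.38, 7.48 and 7.08 with an SD of 1.04e-05 each, as did most probe sets of the table. Lgr5 and Axin2 are the members that take part in Wnt signaling itself. Of 26 measured feedback targets and transducers of Wnt signaling 2 had spread, both with a higher mean in the compression group, beside 48.3% of all probe sets with spread. Myc, a growth regulator, averaged 8.08 ± 0.65 in the compression group and 7.91 ± 0.26 in the no-compression group (SD, n = 7 each), with compression replicate 1 alone at 9.45. Fzd8, a Wnt receptor, averaged 7.62 ± 0.20 in the compression group and 7.53 ± 0.21 in the no-compression group. Neither passed limma (adjusted p = 0.985 and 0.979), and the call of Myc as higher by rank products was lost among probe sets with spread alone. The feedback targets Nkd1, Notum, Znrf3 and Sp5 and the transcription factor Tcf7l2 had no spread. All 12 ligands and markers of the central vein endothelium on the list, such as Wnt2, Wnt9b and Rspo3, were measured and 0 had spread.

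Whether the members varied together between mice was asked with Pearson's r and Spearman's rho for the 6 pairs of members with spread, over all 14 mice and within each group, with permutation p-values (exact within a group) adjusted over these 18 tests. Cyp1a2 and Gulo varied together. Over the 14 mice r was 0.94 (permutation p = 1e-05, the smallest that the resamples can give, adjusted p = 0.00018) and rho was 0.82 (permutation p = 0.00064, adjusted p = 0.0115). Without the 2 mice farthest from the median of Cyp1a2 r was 0.85. Within the no-compression group, where replicates 3, 6 and 7 lay below the other 4 for both genes, r was 0.98 (exact permutation p = 0.00298, adjusted p = 0.0211) and rho was 0.89 (exact permutation p = 0.0123, adjusted p = 0.111). Within the compression group, which holds none of the arrays that stand apart, r was 0.72 (exact permutation p = 0.0627, adjusted p = 0.113) and rho was 0.79 (exact permutation p = 0.048, adjusted p = 0.144). Over the 11 mice left when those 3 were removed r was 0.71 (permutation p = 0.0156) and rho was 0.62, but the count of pairs past the adjusted limit of 0.05 was then 0 of 6.

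Cyp2e1 did not follow Cyp1a2 and Gulo among the 11 mice other than those 3, where it spanned only 12.99 to 13.05. With all 14 mice 3 of the 6 pairs passed the adjusted limit by Pearson's r, the remaining passes being those of Cyp2e1 with Cyp1a2 and with Gulo. The share of all pairs of probe sets with spread that reach this limit was not computed. Genes on neither the pericentral nor the periportal list used below reached high values too, such as Susd4, chosen after its value was seen. Its r over the 14 mice was 0.96 with Gulo and 0.95 with Cyp1a2. For Cyp2e1, as for Cyp1a2 and Gulo, no-compression replicates 3, 6 and 7 lay below all others, so that r over all 14 mice is set in part by them. Over the 14 mice r of Cyp2e1 was 0.75 with Cyp1a2 (rho 0.39) and 0.79 with Gulo (rho 0.40). Over the 11 other mice r was −0.39 for Cyp2e1 and Cyp1a2 (permutation p = 0.236, rho −0.23) and −0.08 for Cyp2e1 and Gulo (permutation p = 0.825, rho −0.21). Within the compression group r was −0.60 (exact permutation p = 0.208, rho 0.04) and 0.02 (exact permutation p = 0.978, rho 0.14) for the same pairs. The first of these turned to 0.38 over the 5 mice left without the 2 farthest from the median of Cyp2e1, which within this group spanned only 12.99 to 13.05. Within the no-compression group, which holds replicates 3, 6 and 7, rho was 0.86 for Cyp2e1 and Cyp1a2 (exact permutation p = 0.0238, adjusted p = 0.143). For Cyp2e1 and Gulo it was 0.68 in this group (exact permutation p = 0.11, adjusted p = 0.273). By rho over 14 mice only the pair of Cyp1a2 and Gulo passed, of the 6.

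The correlations of Oat with the other members were below 0 over the 14 mice, and none passed the limit. Oat and Gulo had r = −0.61 over the 14 mice (permutation p = 0.0198, adjusted p = 0.0509, rho −0.55 with permutation p = 0.0429 and adjusted p = 0.144) and −0.59 without the 2 mice farthest from the median of Oat. Within the compression group r was −0.61 (exact permutation p = 0.144, rho −0.29), but 0.40 over the 5 mice left without the 2 farthest from the median of Oat, and within the no-compression group −0.68 (exact permutation p = 0.102, rho −0.61). Oat and Cyp1a2 had r = −0.45 over the 14 mice (permutation p = 0.106, adjusted p = 0.147, rho −0.28 with permutation p = 0.336). Over the 11 mice r was 0.02 for Oat and Cyp1a2 and −0.57 for Oat and Gulo, with rho of 0.37 and −0.16.

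**Figure D3:**
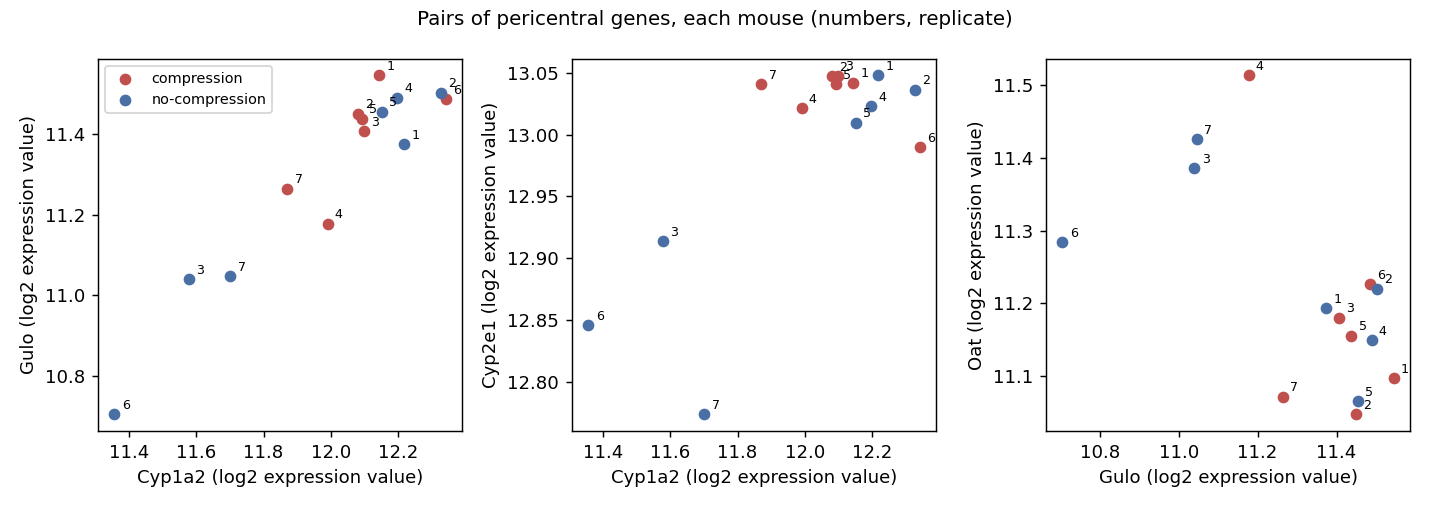
Each point is a mouse (compression in red, no-compression in blue, number for the replicate), with log2 expression values on both axes, for Gulo against Cyp1a2, Cyp2e1 against Cyp1a2 and Oat against Gulo. Gulo and Cyp1a2 rise together over the 14 mice (r = 0.94), with r = 0.72 within the compression group (exact permutation test, adjusted p = 0.113). Cyp2e1 is low in no-compression replicates 3, 6 and 7 and nearly level in the others. Oat is high in compression replicate 4 and in no-compression replicates 7 and 3.

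Other genes known as pericentral leaned the same way as Cyp1a2 and Gulo. Of 39 such genes on the list 33 were measured and 26 had spread, of which 20 had a higher and 6 a lower mean in the compression group, with a median log2 fold change of 0.10. Of all probe sets with spread 48.3% had a higher and 51.7% a lower mean, with a median of −0.0029. In limma 0 passed. An unadjusted p under 0.05 was found for 3 of the 26, beside 7.43% of all probe sets with spread. Rank products called 11 of the 26 higher and 2 lower, beside 22.1% and 21.4% of all probe sets with spread. Of these 13 calls 1 was left, that of Cyp8b1, both when rank products was run on probe sets with spread alone and when no-compression replicates 3, 6 and 7 were removed. The bile acid enzyme Cyp8b1 had the largest log2 fold change of the list, 1.07 (standard error 0.484), and 0.39 with no-compression replicates 3, 6 and 7 left out. The nuclear receptor Nr1i3, also called CAR, averaged 10.85 ± 0.16 in the compression group and 10.35 ± 0.54 in the no-compression group (SD, n = 7 each), with 9.63 as its lowest value, in no-compression replicate 6. Cyp2c37 and Cyp2c54, P450 enzymes of arachidonic acid and drugs, had log2 fold changes of 0.38 each, with standard errors of 0.193 and 0.225. Their family members are near copies of each other, and whether the probes tell them apart was not checked. The list turned on removal of no-compression replicates 3, 6 and 7, to 9 higher and 17 lower means and a median log2 fold change of −0.03. Among the exceptions were Cyp3a11, Gstm3 and Cyp2a4, with log2 fold changes of −0.18, −0.12 and −0.09, which were chosen after their values were seen.

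Periportal genes leaned the opposite way. Of 28 on the list 24 were measured and 19 had spread, of which 5 had a higher and 14 a lower mean with compression, with a median log2 fold change of −0.07. In limma 0 passed (1 at an unadjusted p under 0.05), and rank products called 7 of the 19 lower and 0 higher, beside 21.4% and 22.1% of all probe sets with spread. None of the 7 was called among probe sets with spread alone or on removal of no-compression replicates 3, 6 and 7. Etnppl, a phospholyase of phosphoethanolamine, averaged 10.80 ± 0.42 in the compression group and 11.18 ± 0.39 in the no-compression group (SD, n = 7 each). Agxt, which detoxifies glyoxylate, averaged 9.59 ± 0.17 in the compression group and 9.84 ± 0.29 in the no-compression group, and Cdh1, the E-cadherin of cell contacts, had a log2 fold change of −0.20. Mup20, a major urinary protein, was an exception, at 12.57 ± 0.14 in the compression group and 12.38 ± 0.44 in the no-compression group. With those 3 arrays left out the median was −0.01, from 8 higher and 11 lower means.

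Single mice held many of the extreme values. No-compression replicate 6 held the lowest value of 17 of the 26 other pericentral genes (65.4%), of 2 of the 4 members, and of 30.3% of all probe sets with spread. It held the highest value of 6 of the 19 periportal genes (31.6%), beside 18.1% of all probe sets with spread, but also the lowest value of 4 of them (21.1%), Otc, Cyp2f2, Pigr and Mup20. Compression replicate 6 held the highest value of 9 of the 26 other pericentral genes (34.6%), beside 10.3% of all probe sets with spread, and it was also the highest mouse for Cyp1a2 and the lowest of its group for Cyp2e1. Compression replicate 3 held the lowest value of 7 of the 26 other pericentral genes, beside 25.0% of all probe sets with spread (Gstm1, Gstm2, Gstm3, Gstm6, Cyp2a4, Cyp3a11 and Aldh1a7). That mouse was not low for the members, where it held ranks 2, 7, 8 and 8 of 14 for Cyp2e1, Cyp1a2, Oat and Gulo.

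**Figure D4:**
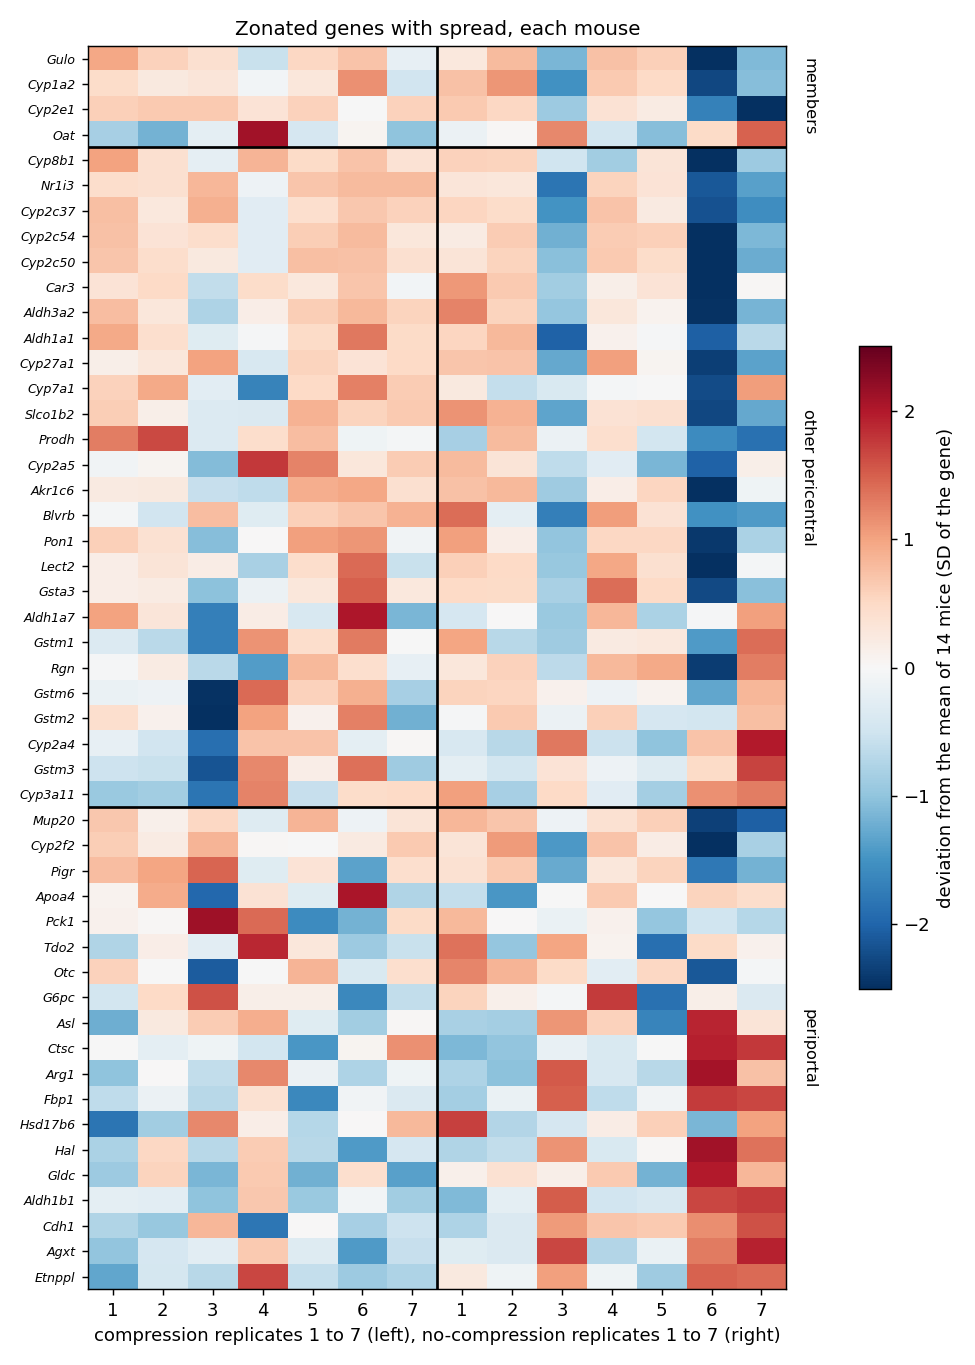
Each row is a gene with spread, from members at the top to other pericentral genes and periportal genes below, ordered by log2 fold change within each block, and each column is a mouse, compression replicates left of the line and no-compression replicates right of it. Colour gives the deviation from the mean of the 14 mice in SDs of the gene (red above, blue below, values past the scale drawn in its end colour). No-compression replicates 3, 6 and 7 are blue for Cyp2e1, Cyp1a2, Gulo and many other pericentral genes and red for Oat and many periportal genes.

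As a description without a test, the correlation of each member with the genes of both lists was taken over mice. All points share the arrays and their normalization. Over the 14 mice the median r of the 26 other pericentral genes was 0.79 with Cyp1a2, 0.78 with Gulo and −0.42 with Oat. The medians over 1234 other probe sets with spread lay between −0.01 and 0.07, where values of both signs cancel. With Cyp1a2, 641 of the 1234 had r above 0 and 593 below. These medians are therefore no background for the strength of r, and the share of the 1234 with r as strong was not computed. For the 19 periportal genes the median r was −0.39, −0.47 and 0.19 in the same order. With Cyp2e1 the median r of the other pericentral genes over the 14 mice was 0.60. Of these 26 genes 19 had r above 0 with it, beside 600 of the 1234. Of the 19 periportal genes 13 had r below 0 with Cyp2e1, beside 634 of the 1234. Over the 11 mice without no-compression replicates 3, 6 and 7 the median r of the other pericentral genes was 0.30 with Cyp1a2, 0.34 with Gulo, −0.12 with Oat and −0.21 with Cyp2e1. The medians over the 1234 were then 0.06, 0.06, −0.03 and −0.09 in the same order. Within the 7 compression mice alone the medians for the other pericentral genes were 0.36 with Cyp1a2 and 0.37 with Gulo, with 22 and 20 of 26 above 0, but −0.37 with Cyp2e1, with 4 of 26 above 0. Over the 1234 they were 0.03, 0.09 and −0.15 in the same order, with 656, 697 and 495 above 0. The lean below 0 with Cyp2e1 was thus shared in part by all probe sets with spread. For the periportal genes the medians were −0.30 with Cyp1a2 and with Gulo, 0.06 with Cyp2e1 and 0.31 with Oat, the last beside −0.04 over the 1234. For Cyp2e1 these values rest on a narrow range, with compression replicate 6 the only mouse of the group below 13.02.

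Ranked over the 14 mice, an order that no-compression replicates 3, 6 and 7 can set, the genes most like Cyp2e1 were Cyp2d9, Mup2, Cyp2d12, Slc37a4 and Cyp2d13. Over the 11 other mice their r with Cyp2e1 was 0.68, 0.67, 0.46, 0.65 and 0.65. The rule would have named those most like Glul as well, which had no named probe set. In its place, chosen after this was seen, the genes most like Gulo over the 14 mice were Cyp2c54 (r = 0.98) and Cyp2c50 (0.97), those most like Cyp1a2 were Dmgdh (0.96) and Slc39a4 (0.95), and those most like Oat were Gsta2 (0.88) and Etnppl (0.86). With no-compression replicates 3, 6 and 7 left out r was 0.91 for Cyp2c54 with Gulo, 0.82 for Dmgdh with Cyp1a2 and 0.81 for Gsta2 with Oat. Etnppl is on the periportal list, and Cyp2c54 and Cyp2c50 are on the pericentral list.

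Among genes around the members' own reactions 0 passed limma. Of 21 genes for ammonia, glutamine and glutamate 16 were measured and 6 had spread, with 2 higher and 4 lower means in the compression group and a median log2 fold change of −0.03. Of all probe sets with spread 48.3% had a higher and 51.7% a lower mean. Gpt2, the mitochondrial alanine aminotransferase, averaged 10.77 ± 0.11 in the compression group and 10.63 ± 0.12 in the no-compression group (SD, n = 7 each). Prodh, the proline oxidase, which is also on the pericentral list, averaged 10.37 ± 0.09 in the compression group and 10.24 ± 0.12 in the no-compression group. Both lay under an unadjusted 0.05 in limma, as did 7.43% of all probe sets with spread, and neither passed (adjusted p = 0.943 each). The amino acid transporters Slc38a2 and Slc7a2 had log2 fold changes of −0.09 and −0.08. Of 10 genes of vitamin C synthesis and use 9 were measured and 6 had spread, 4 higher and 2 lower beside the same shares, with a median of 0.09. Ugp2, which makes UDP-glucose, and Khk, the fructose kinase, had log2 fold changes of 0.18 and 0.17, Slc23a2, a vitamin C transporter, 0.11, and Ugdh, which makes UDP-glucuronate, −0.18. Rank products called 2 of the 6 higher and 1 lower in each list (Gpt2, Prodh and Slc38a2, and Ugp2, Khk and Ugdh), beside 22.1% and 21.4% of all probe sets with spread, and 0 of either list among probe sets with spread alone. The medians were 0.06 and −0.04, both with the sign turned, on removal of no-compression replicates 3, 6 and 7.

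The mean levels of the Kupffer cell and blood cell lists were highest in no-compression replicates 7 and 6, while their single markers were mixed. Of 8 markers of Kupffer cells, all measured, 4 had spread, and the mean log2 level of the list was between 8.12 and 8.26 in compression mice and between 8.14 and 8.35 in no-compression mice, highest in no-compression replicates 7 and 6 (8.35 and 8.29) and at 8.17 in replicate 3. No-compression replicate 7 was highest for Vsig4, Cd5l and Marco, and compression replicate 6 for C1qb. The list of blood cell markers, of which 7 of 9 were measured and 3 had spread, lay between 6.75 and 6.82 in compression mice and between 6.77 and 6.87 in no-compression mice, with the same mice at 6.87, 6.83 and 6.81. Of these markers S100a8, a calcium-binding protein of neutrophils, averaged 5.58 ± 0.06 in the compression group and 5.77 ± 0.28 in the no-compression group (SD, n = 7 each), highest in no-compression replicate 7 at 6.18, which was also highest for S100a9. Alas2, the heme synthesis enzyme of red cell precursors, was highest in no-compression replicate 2 and lowest in no-compression replicate 6. Markers of liver endothelium had 1 of 8 with spread, those of stellate cells 1 of 7 measured, and those of cholangiocytes 0 of 6 measured. Of the hepatocyte markers 2 of 9 measured had spread, and their list lay between 12.39 and 12.40 in compression mice and between 12.38 and 12.41 in no-compression mice. The part of other cell types in the low values of the members was not tested.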

How the data were processed

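RNA of each liver (200 ng) was labelled and hybridized to 1 array per mouse. The deposited log2 values were made by the authors with qFarms in R 3.4.4 (version per the submitters' processing notes), that is quantile normalization and a factor-analysis summary of each probe set. This summary cannot be undone from the table, and a probe set that it holds constant gives no information on a change. The number of arrays limits the precision. Of 29129 rows 6923 control rows were left out.

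Probe sets were named from the platform annotation, which gave 1 gene for 19572 of 22206 and no name for 2634, and the probe set with the highest mean stood for a gene. Groups came from the sample titles. The group means were compared by limma (version 3.58.1, R 4.3.3), with p-values adjusted over all probe sets and a limit of 0.05. Rank products was written out in Python 3.11.15 (7 pairs of arrays, 49 random pairings, median). Permutation tests were exact for 7 values and for group means, and otherwise used 100000 resamples. Standard errors are those moderated by limma. The p-values of limma and of the permutation tests measure the spread between these 14 mice. The FDR of rank products rests on ranks among all probe sets, the near-constant ones included. Scripts were tested on simulated data, and figures were drawn with matplotlib 3.10.9.

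The members and the gene lists were chosen with earlier results of these data known. By the rule for named genes the text names every member, up to 4 genes per list with the largest changes among those with spread, markers of cell types, and the genes most like Cyp2e1. Alternatives were quantile normalization, median centring, filters on low values and on spread, trend and robust fits, array weights, a block for replicate number, and leaving out arrays.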

Additional observations from a re-analysis of the deposited data

Results flagged for a closer look

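Among the 4 members with spread and the 2 groups, 8 sets of 7 mice in all, 1 mouse lay far from the rest of its group by Dixon's test. Oat was at 11.51 in compression replicate 4, and the next highest compression mouse was at 11.23, a gap of 0.616 of the range of the group against a critical value of 0.568. About 1 in 20 sets is flagged by chance. The same mouse had the lowest value of Gulo in its group, 11.18.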

How the results depend on the processing

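In limma 0 members and 0 probe sets passed under each of the 22 alternatives run, leaving out any 1 array included. Among 88 alternative values of the 4 members, 83 kept their direction. Array weights gave −0.10 for Cyp1a2 and −0.018 for Gulo with a median over the members of −0.030, and leaving out no-compression replicates 3, 6 and 7 gave −0.14 for Cyp1a2, 0.028 for Oat and −0.060 for Gulo, with a median of −0.028. The cause was not tested. With any 1 array left out the median lay between 0.06 and 0.15, the lowest without no-compression replicate 6.

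The calls of rank products fell to 3 in the higher and 0 in the lower direction, in place of 280 and 271, once near-constant probe sets were left out. Over the whole table it called between 0 and 2 members with 1 array left out: Cyp2e1 without compression replicate 6 or no-compression replicate 1, and Cyp2e1 and Gulo without no-compression replicate 2 or 4. The pairs of members past the limit were 1 by Spearman's rho in place of 3, 0 without no-compression replicates 3, 6 and 7, and between 1 and 5 with 1 array left out, 5 without compression replicate 4, 2 without no-compression replicate 6 and 1 without no-compression replicate 3.

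The groups share replicate numbers 1 to 7, but mice of the same number share nothing further in the labels. Deviations of same-numbered mice correlated between −0.49 and 0.34 over the probe sets with spread, and 1 of 7 correlated best with its own number. With the replicate number as a block 0 members passed and the median remained 0.12. Each member had 1 probe set, so that an average over probe sets could not be tried.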
